A study of Mus musculus with 9 samples.

Results

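The genes described here are 10 of the 24341 genes listed in every sample: the transcriptional coactivators *Yap1* and *Wwtr1* (which encodes TAZ), the CCN family genes *Ctgf*, *Cyr61*, *Nov*, *Wisp1* and *Wisp2*, and the YAP/TAZ target or regulator genes *Ankrd1*, *Amotl2* and *Ajuba*. They were picked by name for their place in this pathway. Poly(A) RNA of mouse embryonic fibroblasts (MEFs), the adherent cells that grow out of minced embryos, was sequenced in 3 samples labelled WT, 3 labelled Atm-/- and 3 labelled Sirt6-/-. ATM is the kinase that responds to DNA double-strand breaks, and SIRT6 is a chromatin-bound deacylase. All 9 samples carried the strain label C57BL/6 and were grown in DMEM with 10% FBS without a drug, and no age of the embryos is given. The mice named as the source of the MEFs in the labels include P53-/- and Atm-/-P53-/- animals, without saying which samples came from them. The study's methods describe primary MEFs, and immortalized *Atm*/*p53* double-null and *Sirt6*-null MEFs obtained from separate laboratories, and do not say which were sequenced. The genotype, the p53 status, immortalization and the origin of the line therefore cannot be told apart in any comparison below.

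Each sample had between 32187040 and 33837949 reads assigned to genes, so that depth hardly differed. *Sirt6* had 4 to 7 reads in the samples labelled Sirt6-/- against 402 to 487 in WT. *Atm* had 3443 to 3768 reads in the samples labelled Atm-/- against 1536 to 1627 in WT, and since counts per gene do not show which exons were read, they do not check that label. *Trp53* had 806 to 946 reads in the samples labelled Atm-/-, 6563 to 7108 in WT and 9081 to 9218 in Sirt6-/-. All 10 fibroblast markers examined were over 3 reads in every WT and Atm-/- sample, but *Thy1* had 1, 33 and 12 reads in the Sirt6-/- samples. Nothing in the labels says that the 3 samples of a genotype came from separate cultures or embryos, so p-values measure only the spread between these samples.

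YAP and TAZ do not bind DNA themselves. They enter the nucleus and switch on genes with the TEAD family of DNA-binding proteins, and the Hippo kinases (MST1/2, encoded by *Stk4* and *Stk3*, and LATS1/2) phosphorylate both proteins and hold them in the cytoplasm. Fibroblasts on a stiff surface are known for nuclear YAP and TAZ and for high *Ctgf*, *Cyr61* and *Ankrd1*, which serve as the usual readout of the pathway. CCN proteins are secreted, bind integrins and growth factors in the extracellular matrix, and share a modular structure from which WISP2 lacks the last module. YAP and TAZ are controlled largely at the protein level, which RNA counts do not measure.

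Promoters are shown first because TEAD proteins bind a short DNA element whose letters can be searched for in them. RefSeq promoters (GRCm38.p6) were at hand for 6 of the 10 genes, namely *Yap1*, *Wwtr1*, *Cyr61*, *Ankrd1*, *Amotl2* and *Ajuba*, with 2 for *Wwtr1*. None was at hand for *Ctgf*, *Nov*, *Wisp1* or *Wisp2*. The motif CATTCC, the core of the MCAT element that TEAD proteins bind, was searched on both strands, where the reverse strand reads GGAATG, in windows from 250 bases before to 50 bases after each start. All 7 of these promoters, which belong to 6 genes, held the motif, while 14.7% of all 32851 promoters in the table did. The promoter of *Wisp3*, the remaining CCN gene and not among the 10, was also at hand and held no motif. A pair of motifs was present in 2 of the 7 promoters, those of *Ankrd1* and *Ajuba*, against 1.36% of all promoters with 2 or more. *Ankrd1* held its motifs 210 and 123 bases before the start and *Ajuba* 186 and 164 bases before it. *Cyr61* held 1 motif at 103 bases, *Amotl2* 1 at 65 bases and *Yap1* 1 at 141 bases, and the 2 promoters of *Wwtr1*, which overlap, held the same motif, 136 bases before one start and 170 before the other. A match describes the letters and is not a binding site. The 250 bases before the start are printed for 4 genes, 5′ to 3′ on the gene's strand, with each motif in capitals.
Cyr61: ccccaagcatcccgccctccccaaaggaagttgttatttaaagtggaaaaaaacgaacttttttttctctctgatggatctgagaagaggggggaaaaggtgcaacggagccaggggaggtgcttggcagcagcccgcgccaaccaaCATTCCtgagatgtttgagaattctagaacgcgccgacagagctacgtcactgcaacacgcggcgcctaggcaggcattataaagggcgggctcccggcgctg
Ankrd1: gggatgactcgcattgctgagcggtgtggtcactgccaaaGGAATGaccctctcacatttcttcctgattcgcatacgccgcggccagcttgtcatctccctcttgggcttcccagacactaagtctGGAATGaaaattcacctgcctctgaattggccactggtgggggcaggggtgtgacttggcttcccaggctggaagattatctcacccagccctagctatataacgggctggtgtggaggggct
Amotl2: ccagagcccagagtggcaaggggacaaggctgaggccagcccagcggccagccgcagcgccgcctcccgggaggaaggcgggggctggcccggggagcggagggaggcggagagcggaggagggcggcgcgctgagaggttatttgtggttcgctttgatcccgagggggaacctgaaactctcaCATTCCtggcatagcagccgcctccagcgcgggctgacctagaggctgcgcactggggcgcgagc
Ajuba: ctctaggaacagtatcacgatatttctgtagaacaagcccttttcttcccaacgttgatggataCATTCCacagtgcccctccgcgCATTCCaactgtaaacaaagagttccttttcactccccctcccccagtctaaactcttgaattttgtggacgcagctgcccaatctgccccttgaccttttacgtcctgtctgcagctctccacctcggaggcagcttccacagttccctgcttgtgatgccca

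The 4 stretches lie before the RefSeq starts of *Cyr61* (chr3:145649986-145650235, minus strand), *Ankrd1* (chr19:36119845-36120094, minus strand), *Amotl2* (chr9:102717554-102717803, plus strand) and *Ajuba* (chr14:54577662-54577911, minus strand). Those of *Ankrd1* and *Amotl2* fall inside the GENCODE bounds of these genes given further on. The motif distances above therefore hold for the RefSeq starts. These 4 genes with the same short motif moved differently across the genotypes, as the following values show. Promoters were also at hand for 12 of the 18 other YAP/TAZ target genes described further on, and 4 of these 14 promoters held the motif. For 22 of the 28 Hippo pathway and partner genes, 10 of 26 promoters held it.

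All 10 genes passed the filter on low counts in each comparison. In the samples labelled Atm-/- against WT, 3 of the 10 were higher and 7 lower at an adjusted p under 0.05 (edgeR's quasi-likelihood F test, used throughout, with p adjusted over all genes tested by Benjamini and Hochberg). Among all 13283 genes tested in this comparison 68.4% were called, 34.7% higher and 33.6% lower, so a call by itself says little about these genes. In Sirt6-/- against WT, again 3 were higher and 7 lower, beside 76.6% of 13206 genes called, 39.2% higher and 37.4% lower. The median log2 fold change of the 10 genes was -0.63 in the first and -0.50 in the second comparison, and that of all genes tested was 0.02 in both. *Nov*, *Wisp2* and *Ankrd1* were higher and *Yap1*, *Wwtr1*, *Ctgf*, *Cyr61*, *Wisp1*, *Amotl2* and *Ajuba* lower in both comparisons, which share their WT samples. Scaling by library totals instead of trimmed means (TMM) moved the median of all genes by 0.16 on the log2 scale in Atm-/- against WT and changed the split of all calls there from 4611 higher and 4469 lower to 6156 and 3326. Under that scaling 3 of the 10 genes were higher and 6 lower in each comparison with WT, the lost genes being *Yap1* in Atm-/- and *Amotl2* in Sirt6-/-. The sizes differed widely between the genes, from a log2 fold change of -3.08 for *Wisp1* to 6.70 for *Wisp2*, both in Sirt6-/-. The plot of levels by sample shows this range.

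**Figure D1:**
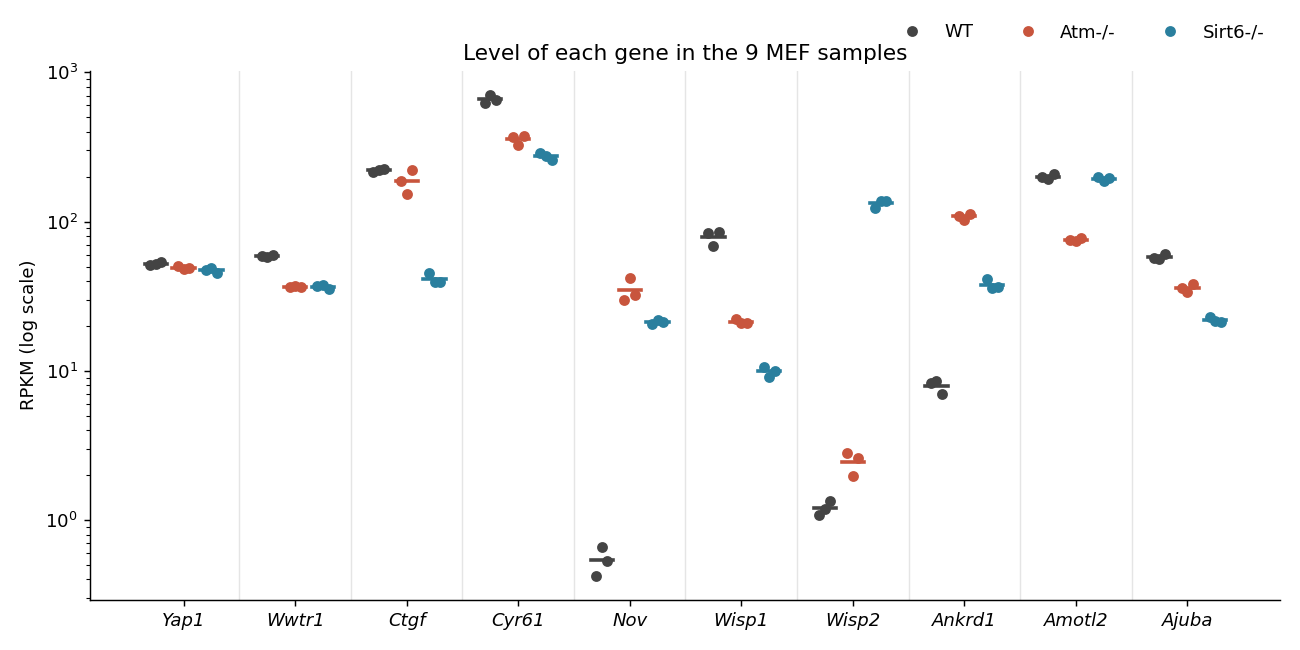
Level of each of the 10 genes in RPKM, reads scaled by transcript length and library depth (log scale), with a point for each of the 3 samples of a genotype and a line at their mean. *Nov* and *Ankrd1* lie far above WT in both knockout groups, *Wisp2* reaches a mean of 133 RPKM in Sirt6-/- against 1.20 in WT, and *Amotl2* is lowest in Atm-/-.

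*Yap1*, on the minus strand of chromosome 9 (GRCm38, chr9:7931999-8004596), encodes YAP. It had 7184, 7209 and 7472 reads in WT, 6965, 6670 and 6572 in Atm-/- and 6416, 6602 and 6284 in Sirt6-/-. The ranges of the WT samples and of each knockout did not overlap, but the shift was small. The log2 fold change against WT was -0.25 ± 0.04 (SE, n = 3 per group, edgeR adjusted p = 0.000155) in Atm-/- and -0.23 ± 0.05 (edgeR adjusted p = 0.000399) in Sirt6-/-. With library totals the fold change in Atm-/- was -0.09 and no longer passed (edgeR adjusted p = 0.0932), while that in Sirt6-/- was -0.14 and passed. In deposited RPKM, which are scaled by totals too, *Yap1* was 52.2 ± 1.46 (SD, n = 3) in WT, 49.1 ± 1.37 in Atm-/- and 47.2 ± 2.04 in Sirt6-/-. An antisense non-coding gene, Gm20416, shares exonic sequence with *Yap1*, and whether the counting used strand is not given in the sources used here.

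*Wwtr1*, on the minus strand of chromosome 3 (chr3:57455649-57575910), encodes TAZ, the paralogue of YAP. It had 9327, 9025 and 9302 reads in WT, 5650, 5730 and 5482 in Atm-/- and 5618, 5685 and 5512 in Sirt6-/-. Both knockout groups sat well below WT. They overlapped each other in reads and in RPKM, but not after TMM scaling, at 162 to 164 CPM in Atm-/- and 165 to 175 CPM in Sirt6-/-. *Wwtr1* fell by 0.85 on the log2 scale in Atm-/- (SE 0.04, edgeR adjusted p = 1.7e-10) and by 0.77 in Sirt6-/- (SE 0.04, edgeR adjusted p = 7.0e-10). Because it fell further than *Yap1*, the ratio of *Wwtr1* to *Yap1* RPKM within a sample went from 1.13 ± 0.03 (SD, n = 3) in WT to 0.75 ± 0.02 in Atm-/- and 0.78 ± 0.01 in Sirt6-/-. *Wwtr1* was thus the more abundant of the pair per length in every WT sample and the less abundant in every knockout sample. Neither gene passed the test between the knockouts: Atm-/- against Sirt6-/- differed by -0.00 (95% interval -0.09 to 0.09) for *Yap1* and by -0.06 (-0.15 to 0.02) for *Wwtr1* on the log2 scale. The sign of the *Yap1* value turned with the scaling.

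TEAD proteins are the partners that bring YAP and TAZ to DNA. *Tead1* was the most abundant TEAD gene in WT and had 46910, 41127 and 46532 reads there, 9585, 9120 and 9410 in Atm-/- and 7375, 6955 and 7065 in Sirt6-/-. The 3 genotypes did not overlap, and the log2 fold change against WT was -2.40 ± 0.05 (SE) in Atm-/- and -2.71 ± 0.05 in Sirt6-/-, larger falls than those of either coactivator. *Tead2* rose, with log2 fold changes of 0.48 and 0.46. *Tead3* fell by 1.53 in Atm-/- and by 0.63 in Sirt6-/-, and the RPKM of *Tead4* was 8.15, 7.42 and 6.02 in WT, Atm-/- and Sirt6-/-. *Tead1* made up 69.6% ± 1.8 (SD, n = 3) of the summed RPKM of the 4 TEAD genes in WT, 35.1% ± 0.72 in Atm-/- and 27.4% ± 0.38 in Sirt6-/-, while that sum was 203 ± 8.4, 85.8 ± 1.33 and 83.8 ± 2.46 RPKM. *Vgll3*, which encodes a cofactor that binds TEAD in place of YAP or TAZ, fell by 1.91 in Atm-/- and by 0.96 in Sirt6-/-. Of the 6 TEAD and VGLL genes examined, 1 was higher, 4 lower and 1 not called in each of the comparisons with WT, beside 68.4% and 76.6% of all genes called. With library totals 2 were higher and 3 lower in Atm-/- and 2 higher and 4 lower in Sirt6-/-, as *Tead4* lost its call in Atm-/- (edgeR adjusted p = 0.216) and *Vgll4* was called higher in both (edgeR adjusted p = 0.0142 and 0.0299).

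**Figure D2:**
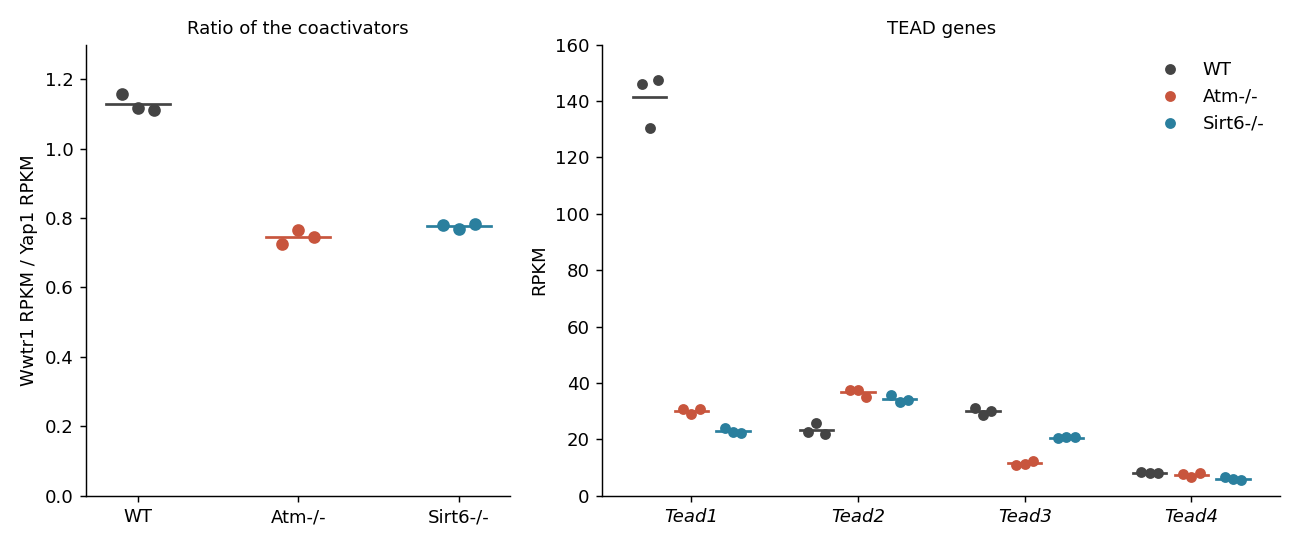
Left, *Wwtr1* RPKM divided by *Yap1* RPKM in each sample, with a line at the mean of the 3 samples of a genotype. Right, RPKM of the 4 TEAD genes by sample, where *Tead1* drops from a mean of 141 RPKM in WT to 30.1 in Atm-/- and 23.0 in Sirt6-/- and *Tead2* becomes the highest of the 4 in both knockouts.

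*Cyr61* (also Ccn1; chr3:145646976-145649981, minus strand), an immediate-early gene whose secreted product binds integrins, was the most abundant CCN gene in all 9 samples. It had 42850, 47851 and 43857 reads in WT, 24878, 22035 and 24728 in Atm-/- and 18904, 18063 and 17648 in Sirt6-/-. Its levels followed the order WT, Atm-/-, Sirt6-/- without overlap, at 661 ± 44.3, 358 ± 28.3 and 275 ± 14.1 RPKM (SD, n = 3), which placed it 82nd, 173rd and 231st of 24341 genes by mean RPKM. *Cyr61* fell by 1.05 on the log2 scale in Atm-/- (SE 0.06, edgeR adjusted p = 1.1e-09) and by 1.35 in Sirt6-/- (SE 0.05, edgeR adjusted p = 9.8e-12).

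*Ctgf* (also Ccn2; chr10:24595442-24598683, plus strand), the connective tissue growth factor gene that marks matrix production in fibrosis, behaved differently in the knockouts. It had 17473, 17741 and 18105 reads in WT, 14863, 12272 and 17087 in Atm-/- and 3526, 3054 and 3145 in Sirt6-/-. The Sirt6-/- samples were low together, whereas the Atm-/- samples were spread from far below WT to near it. In RPKM the third Atm-/- sample, at 220, lay within the WT samples at 215, 222 and 226, while the other Atm-/- samples were at 188 and 153. The log2 fold change was -2.51 ± 0.06 (SE, n = 3 per group, edgeR adjusted p = 2.0e-14) in Sirt6-/- and -0.40 ± 0.09 (edgeR adjusted p = 0.00115) in Atm-/-. The Atm-/- value was -0.24 with library totals, and between -0.53 without the third and -0.27 without the second Atm-/- sample, and passed the test in each of these. The coefficient of variation of *Ctgf* among the Atm-/- samples, in TMM-scaled CPM, was 18.0%, higher than that of 99.8% of the 7141 genes with at least 500 reads in every sample. A non-coding antisense gene, Gm15270, shares exonic sequence with *Ctgf*.

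*Wisp1* (also Ccn4; chr15:66891320-66923201, plus strand), known as a gene induced by Wnt signalling, had 14237, 11534 and 14279 reads in WT, 3673, 3484 and 3412 in Atm-/- and 1735, 1475 and 1689 in Sirt6-/-. It fell in the same order as *Cyr61* but further, with no overlap between genotypes. The log2 fold change was -2.06 ± 0.07 (SE, edgeR adjusted p = 3.1e-12) in Atm-/- and -3.08 ± 0.08 (edgeR adjusted p = 8.3e-14) in Sirt6-/-. These were the 533rd lowest of 13283 and the 502nd lowest of 13206 fold changes.

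*Nov* (also Ccn3; chr15:54745702-54754039, plus strand), whose product is known to restrain growth and to oppose some actions of CTGF, moved the other way. It had 34, 52 and 42 reads in WT, 2344, 3288 and 2466 in Atm-/- and 1584, 1668 and 1686 in Sirt6-/-. The knockout samples were all more than an order of magnitude above WT, and the Atm-/- samples were all above the Sirt6-/- samples. *Nov* was 57.3-fold higher than WT in Atm-/- (log2 5.84 ± 0.16 SE, edgeR adjusted p = 3.1e-13) and 37.1-fold higher in Sirt6-/- (log2 5.21 ± 0.12 SE, edgeR adjusted p = 2.2e-14). Its mean RPKM went from 0.540 in WT to 34.7 and 21.3.

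*Wisp2* (also Ccn5; chr2:163820861-163833146, plus strand) encodes the short CCN protein that is made by quiescent smooth muscle and mesenchymal cells. It had 65, 70 and 79 reads in WT, 164, 117 and 150 in Atm-/- and 7106, 7887 and 8144 in Sirt6-/-. The Sirt6-/- samples stood apart from all others. *Wisp2* was 104-fold higher than WT in Sirt6-/- (log2 6.70 ± 0.09 SE, edgeR adjusted p = 5.3e-17), the 158th largest rise among 13206 genes. In Atm-/- the log2 fold change was 0.87 ± 0.21 (SE, edgeR adjusted p = 0.00200), from 1.20 to 2.46 RPKM on average. *Wisp3*, the remaining CCN gene, had 7 to 26 reads in the 9 samples, and its exons overlap those of *Tube1* on the other strand.

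The CCN family as a whole became smaller and differently composed. The summed RPKM of its 6 genes was 963 ± 39.7 (SD, n = 3) in WT, 604 ± 55.8 in Atm-/- and 480 ± 11.3 in Sirt6-/-. *Cyr61* supplied 68.6% ± 1.9 of that sum in WT, 59.4% ± 1.46 in Atm-/- and 57.2% ± 1.66 in Sirt6-/-. *Ctgf* supplied 23.0% ± 0.72, 30.8% ± 2.76 and 8.59% ± 0.60. In Sirt6-/- the place of *Ctgf* as the gene second to *Cyr61* was taken by *Wisp2*, with 27.7% ± 2.11 against 0.12% ± 0.01 in WT and 0.406% ± 0.05 in Atm-/-. *Nov* went from 0.0557% in WT to 5.83% ± 1.59 in Atm-/- and 4.43% ± 0.18 in Sirt6-/-, and *Wisp1* from 8.27% ± 1.2 to 3.55% ± 0.31 and 2.07% ± 0.17. These shares are set within a sample and do not depend on the scaling between samples. In bulk RNA, fewer cells making a gene and less of its RNA per cell cannot be told apart.

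**Figure D3:**
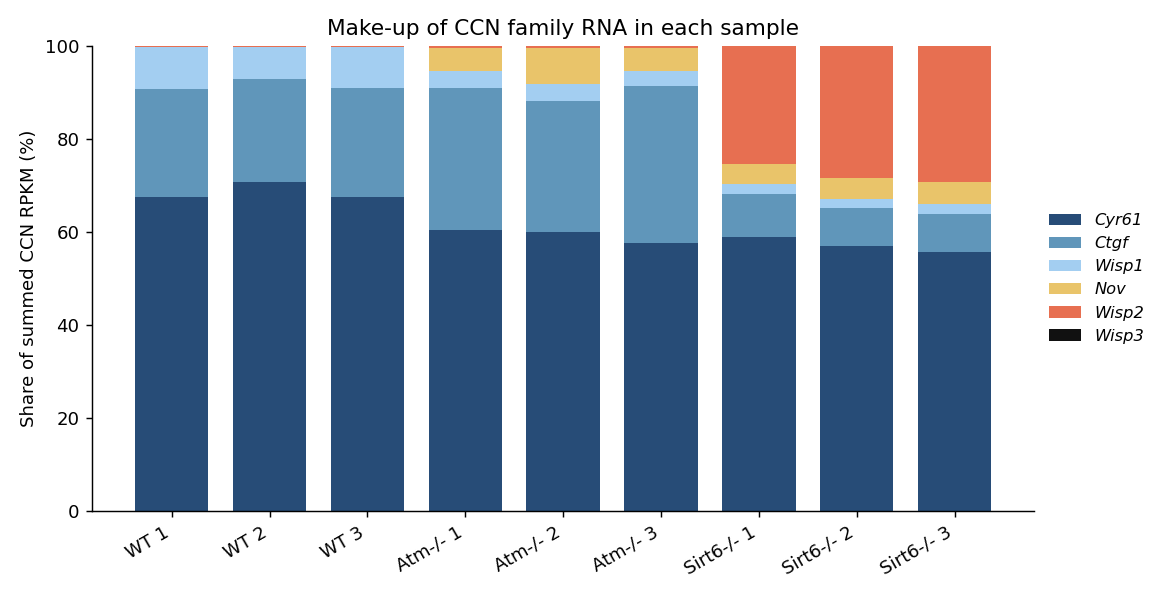
Share of each CCN gene in the summed RPKM of the 6 CCN genes, as stacked bars for each of the 9 samples (axis from 0 to 100%). *Wisp2* takes 25.3 to 29.3% in the Sirt6-/- samples and under 1% elsewhere, and *Wisp3* is too low to be seen.

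Markers of cartilage, a tissue in which *Nov* and *Ctgf* are also made, were higher than WT in both knockouts, as *Nov* and *Wisp2* were. Their sum and *Wisp2* were both lowest in WT and highest in Sirt6-/-, and *Nov* was highest in Atm-/-. *Ctgf* fell in both knockouts. The summed level of *Sox9*, *Acan* and *Col2a1* was 5.35 to 5.81 CPM, reads scaled by library depth, in WT, 71.2 to 87.2 in Atm-/- and 265 to 317 in Sirt6-/-. Different genes carried it: *Acan* had 1706 to 2146 reads in Atm-/- and 42 to 62 in Sirt6-/-, *Col2a1* had 24 to 31 and 7914 to 9890, and in WT these genes had 0 to 3 and 6 to 20. Their part in the *Nov* and *Wisp2* values was not tested. The smooth muscle markers *Acta2*, *Myh11*, *Tagln* and *Cnn1* summed to 2489 to 2711 CPM in WT, 888 to 1148 in Atm-/- and 1254 to 1602 in Sirt6-/-, and the skeletal muscle markers *Myod1*, *Myog* and *Myh3* had at most 2 reads in any sample. The 10 fibroblast markers did not move together. They summed to 28054 to 31384 CPM in WT, 9124 to 9362 in Atm-/- and 20113 to 20493 in Sirt6-/-. *Col1a1*, *Fn1* and *Vim* weigh heavily in that sum, as does *Col1a2* in WT and Sirt6-/-. The sum was below WT in both knockouts. In Sirt6-/-, however, *Col1a2* rose by 0.72, *Pdgfrb* by 1.31, *S100a4* by 1.63 and *Dcn* by 0.45 on the log2 scale. *Col1a2* was the largest part of the sum there, at a mean of 7776 CPM. In Atm-/- *Thy1* rose by 1.83. Epithelial markers summed to 18.1 to 21.8 CPM in WT, 41.0 to 46.2 in Atm-/- and 14.1 to 17.9 in Sirt6-/-. Neural markers summed to 4.98 to 6.18, 10.1 to 14.1 and 30.7 to 31.5 CPM in the same order, and blood markers to 10.7 to 11.9, 3.40 to 3.61 and 3.52 to 4.18. Endothelial markers stayed at or below 0.829 CPM. The part of these cell type markers in the values of the 10 genes was not tested.

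*Ankrd1* (chr19:36111961-36120099, minus strand) encodes a titin-associated ankyrin repeat protein of striated muscle that also enters the nucleus, and is among the most used YAP/TAZ target genes. It had 496, 500 and 414 reads in WT, 6382, 6059 and 6427 in Atm-/- and 2346, 2062 and 2145 in Sirt6-/-. It rose while *Cyr61* and *Ctgf* fell. *Ankrd1* was 12.2-fold higher than WT in Atm-/- (log2 3.61 ± 0.07 SE, edgeR adjusted p = 1.9e-14) and 4.48-fold higher in Sirt6-/- (log2 2.16 ± 0.09 SE, edgeR adjusted p = 8.3e-12). The ratio of *Ankrd1* to *Cyr61* RPKM was 0.0121 ± 0.0012 (SD, n = 3) in WT, 0.303 ± 0.01 in Atm-/- and 0.138 ± 0.0059 in Sirt6-/-, and that of *Ctgf* to *Cyr61* was 0.335 ± 0.02, 0.519 ± 0.06 and 0.150 ± 0.0074. The 3 genes used most often as a readout of one pathway therefore did not move as one.

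*Amotl2* (chr9:102716672-102733418, plus strand) encodes an angiomotin-like protein that binds YAP and TAZ at junctions and is itself a target of both. It had 28261, 26804 and 29174 reads in WT, 10456, 10305 and 10453 in Atm-/- and 26954, 25182 and 27680 in Sirt6-/-. The Atm-/- samples were low and almost equal. The Sirt6-/- samples overlapped WT in reads and in RPKM, but not after TMM scaling, at 774 to 827 against 854 to 931 CPM. *Amotl2* fell by 1.57 on the log2 scale in Atm-/- (SE 0.04, edgeR adjusted p = 4.0e-13). In Sirt6-/- the log2 fold change was -0.13 ± 0.05 (SE, edgeR adjusted p = 0.0177), and this call was lost with library totals (-0.04, edgeR adjusted p = 0.423), without the third WT sample (-0.11, edgeR adjusted p = 0.0571) and without the second Sirt6-/- sample (-0.10, edgeR adjusted p = 0.102).

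*Ajuba* (chr14:54567472-54577558, minus strand) encodes a LIM-domain protein that holds LATS kinases at junctions under tension. It had 6798, 6529 and 7115 reads in WT, 4160, 3971 and 4329 in Atm-/- and 2595, 2432 and 2493 in Sirt6-/-. The genotypes formed separate steps from WT down to Sirt6-/-. *Ajuba* fell by 0.85 in Atm-/- (SE 0.05, edgeR adjusted p = 3.1e-09) and by 1.50 in Sirt6-/- (SE 0.05, edgeR adjusted p = 1.4e-12) on the log2 scale. By mean RPKM the levels were 58.1 ± 2.53, 36.1 ± 2.13 and 21.9 ± 0.88 (SD, n = 3).

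The direct comparison tested where the knockouts differed from each other. In Atm-/- against Sirt6-/-, 6 of the 10 genes were higher, 2 lower and 2 not called, beside 75.8% of 13460 genes called, 38% higher and 37.8% lower. The median log2 difference was 0.48 for the 10 genes and 0.00 for all genes tested. *Wisp2* was lower in Atm-/- by the widest margin among the 10, with a log2 difference of -5.81 ± 0.08 (SE, edgeR adjusted p = 9.5e-23), the 88th lowest of 13460. *Amotl2* was lower too, at -1.42 ± 0.04 (edgeR adjusted p = 3.6e-18). The higher genes were *Ctgf* at 2.12 ± 0.09 (edgeR adjusted p = 5.9e-15), *Ankrd1* at 1.46 ± 0.05 (edgeR adjusted p = 7.7e-16) and *Wisp1* at 1.04 ± 0.06 (edgeR adjusted p = 9.7e-13). *Ajuba* at 0.66 ± 0.05, *Nov* at 0.64 ± 0.08 and *Cyr61* at 0.32 ± 0.05 were higher in Atm-/- by less than 2-fold. The coactivators *Yap1* and *Wwtr1* did not pass.

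**Figure D4:**
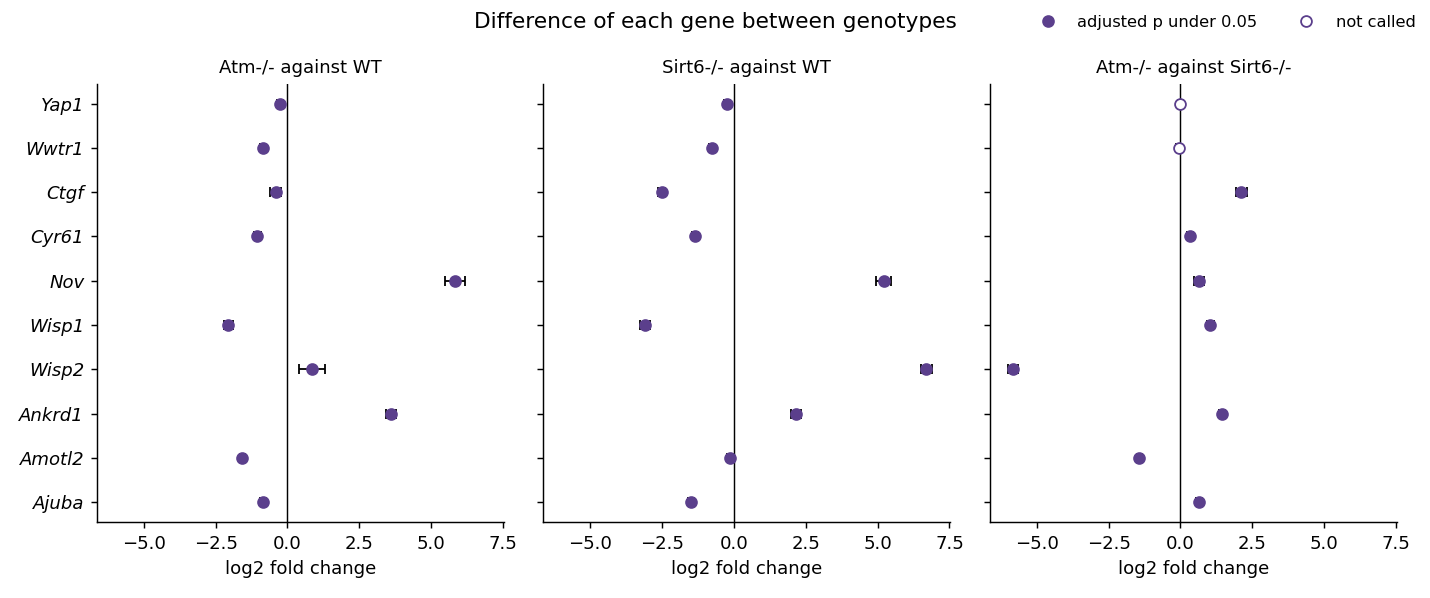
Log2 fold change of each of the 10 genes in the 3 comparisons, with 95% intervals. Filled points passed an adjusted p under 0.05 and open points did not, and the open points are *Yap1* and *Wwtr1* in the comparison of the knockouts.

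The upstream pathway was read from lists of 11 Hippo kinases and adaptors and 11 upstream or junctional regulators, beside the 6 nuclear partners above. Of these 28 genes, all tested, 7 were higher, 16 lower and 5 not called in Atm-/- against WT, 7, 17 and 4 in Sirt6-/- against WT, and 15, 10 and 3 in Atm-/- against Sirt6-/-, beside 68.4%, 76.6% and 75.8% of all genes called in the same order. With library totals the split in Atm-/- against WT was 11 higher and 14 lower. Their median log2 fold changes against WT were -0.31 and -0.32. The median log2 fold change of the kinases and adaptors was -0.14 in Atm-/-, which turned to 0.03 with library totals, and -0.25 in Sirt6-/-, and the median size of their changes regardless of sign was 0.33 and 0.32, beside 0.40 and 0.54 for all genes. Of these 11, 2 were higher and 6 lower in Atm-/-, and 2 higher and 7 lower in Sirt6-/-, beside 68.4% and 76.6% of all genes called. With library totals 4 were higher and 5 lower in Atm-/-. *Lats2*, a kinase that phosphorylates YAP and TAZ and is their target, fell by 0.84 and by 1.04. *Map4k4*, a kinase that acts in parallel to MST1/2, fell by 1.01 and by 1.10. The MST genes split: *Stk3* had 1333, 1349 and 1295 reads in WT, 2280, 2502 and 2272 in Atm-/- and 1355, 1367 and 1328 in Sirt6-/-, with a rise of 0.69 in Atm-/-. *Stk4* had 3569, 3613 and 3585 reads in WT, 3144, 3008 and 3046 in Atm-/- and 1751, 1593 and 1667 in Sirt6-/-, with a fall of 1.16 in Sirt6-/-. *Sav1*, which encodes the scaffold of the MST kinases, rose by 0.17 in Atm-/- and by 0.45 in Sirt6-/-.

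Among the 11 upstream regulators, 4 were higher and 6 lower in each comparison with WT, beside 68.4% of all genes called in Atm-/- and 76.6% in Sirt6-/-. The atypical cadherin genes *Dchs1* and *Fat4*, a ligand and receptor pair, were higher in both knockouts. *Dchs1* had 4, 2 and 4 reads in WT, 389, 442 and 359 in Atm-/- and 1325, 1425 and 1424 in Sirt6-/-. *Fat4* had 313, 246 and 341, then 1597, 1649 and 1620, then 2873, 2565 and 3329, a log2 rise of 2.30 and 3.23. Both were higher in Sirt6-/- than in Atm-/-, with log2 differences of Atm-/- against Sirt6-/- of -1.88 for *Dchs1* and -0.92 for *Fat4*. *Wwc1*, which encodes KIBRA, fell by 2.49 in Sirt6-/- and *Ptpn14*, which encodes a phosphatase that retains YAP in the cytoplasm, fell by 1.28 in Atm-/-. *Amot*, the relative of *Amotl2*, had 4291, 4059 and 4210 reads in WT, 2565, 2593 and 2749 in Atm-/- and 7293, 6995 and 6997 in Sirt6-/-. It fell by 0.80 in Atm-/- and rose by 0.71 in Sirt6-/-.

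A list of 18 other genes described as YAP/TAZ targets in tumour and epithelial cells, 2 of which (*Lats2* and *Ptpn14*) are also in the Hippo lists, was read in the same way. In Atm-/- against WT 5 were higher and 13 lower, in Sirt6-/- against WT 4 were higher, 10 lower and 4 not called, and in Atm-/- against Sirt6-/- 8 were higher, 8 lower and 2 not called. Over all genes 68.4%, 76.6% and 75.8% were called in these comparisons, so the 14 calls in Sirt6-/- against WT are near the background. The median log2 fold changes against WT were -0.40 and -0.52, beside 0.02 for all genes in both. With library totals 9 instead of 13 of the 18 were called lower in Atm-/-. *Igfbp3*, which encodes the main carrier of insulin-like growth factors, had 42393, 32558 and 45226 reads in WT, 877, 928 and 930 in Atm-/- and 35, 50 and 36 in Sirt6-/-. *Tgfb2*, a TGF-beta ligand gene, fell by 2.19 and by 1.79, and *Ccdc80*, a matrix protein gene, by 2.68 in Atm-/-. In the other direction, *Nt5e*, which encodes the surface enzyme CD73, had 38, 30 and 18 reads in WT, 322, 290 and 363 in Atm-/- and 252, 370 and 289 in Sirt6-/-. *Gadd45a*, also a known p53 target gene, had 622, 634 and 663 reads in WT, 470, 461 and 513 in Atm-/- and 1066, 1181 and 1241 in Sirt6-/-, and rose by 0.81 in Sirt6-/-. Target genes thus moved in both directions, and *Igfbp3*, not a CCN gene, fell the furthest of the 18 in both comparisons with WT.

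**Figure D5:**
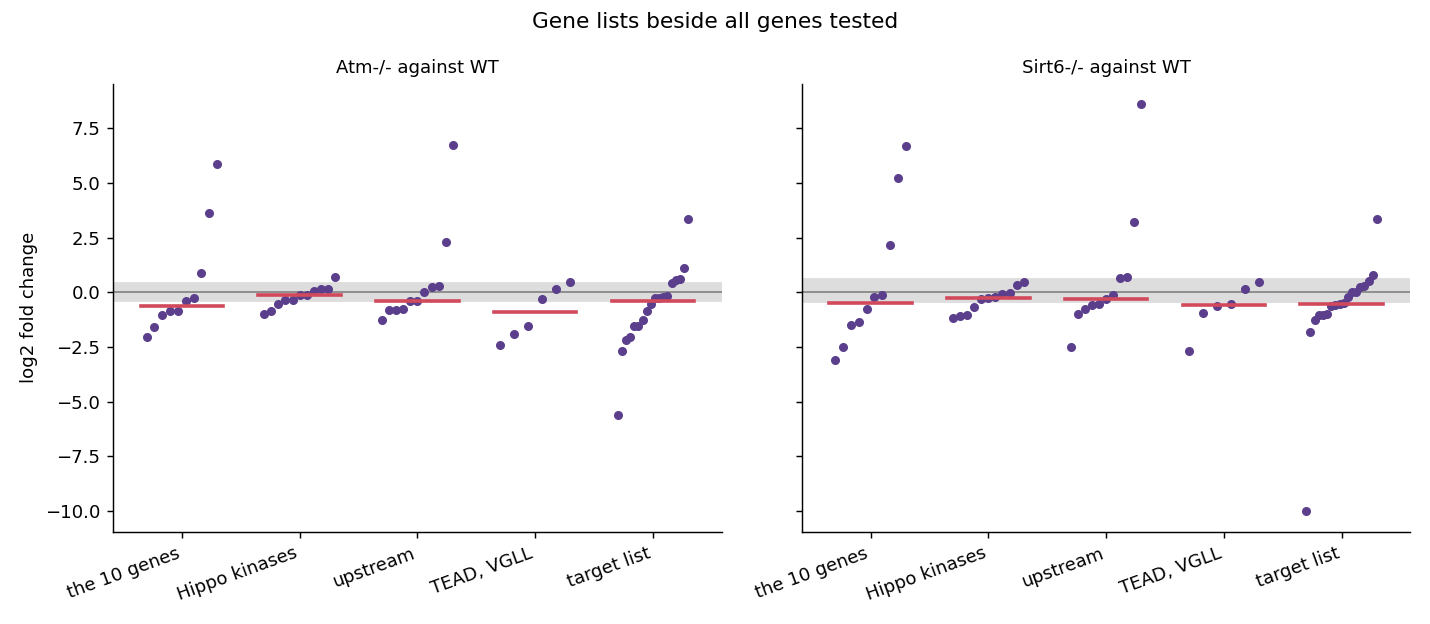
Log2 fold changes against WT of the 10 genes and of the pathway lists, each point a gene and each red line the median of its list. The grey band spans the middle 50% of all genes tested and the grey line their median, and every list median lies below that line under this TMM scaling, while that of the kinases in Atm-/- turns to 0.03 with library totals.

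Within a genotype the genes also varied unequally. *Wwtr1* had a coefficient of variation of 0.561% among the Atm-/- samples, lower than most of the 7141 genes with at least 500 reads in every sample (median 3.99%), and *Yap1* 2.72%, while *Ctgf* stood at 18.0%. After TMM scaling, the second Atm-/- sample was the lowest of its genotype for 8 of the 10 genes, *Wwtr1* and *Nov* being the exceptions. The same sample was the lowest for the contractile genes *Acta2*, *Tagln* and *Cnn1*. In Sirt6-/- the second sample was the lowest for *Ctgf*, *Wisp1*, *Ankrd1* and *Amotl2* and again for the 3 contractile genes, with differences between the highest and the lowest sample of 1.15-fold for *Ctgf* and 1.76-fold for *Cnn1*. The third Sirt6-/- sample was the lowest for as many of the 10 genes, *Yap1*, *Wwtr1*, *Cyr61* and *Ajuba*, and the first for *Nov* and *Wisp2*. These orders concern 3 samples, were not set beside those of all genes and were not tested.

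The genes whose log2 CPM followed each of the 10 most closely over the 9 samples were looked up among 13741 genes. These are descriptions, since the 9 samples are 3 genotypes and any gene with the same 3 levels follows closely. The nearest to *Yap1* was *Lypla1* (Pearson r = 0.9898), to *Wwtr1* *Ap3m1* (0.9988), to *Ctgf* *Cad* (0.9963) and to *Cyr61* *Metrnl* (0.9976). The nearest to *Nov* was *Pcbp3* (0.9994), to *Wisp1* *Kat2b* (0.9992) and to *Wisp2* the matrix metalloprotease gene *Mmp2* (0.9982). *Ankrd1* was followed by *Dpysl3* (0.9987), *Amotl2* by the proteoglycan gene *Bgn* (0.998) and *Ajuba* by *Rhpn2* (0.9986). No gene of the 10 was the nearest to another of the 10.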

How the data were processed

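RNA was enriched on oligo(dT) beads and sequenced on an Illumina HiSeq instrument for 9 MEF samples, 3 per genotype, grouped by the genotype in their labels. The authors deposited for each sample a table of raw read counts and of RPKM per gene, aligned to mm10 per the labels. The aligner, the counter and the use of strand are not given in the sources used here. RPKM were used to compare genes and within-sample shares, and counts for tests. Between 32187040 and 33837949 reads were assigned per sample, where a floor of 3 counts equals 0.0887 to 0.0932 CPM, for counting error only.

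Each pair of genotypes was fitted separately across all genes in edgeR 4.0.16 (R 4.3.3; filterByExpr with a minimum count of 10, TMM, quasi-likelihood F test, prior count 0.125, Benjamini-Hochberg, threshold 0.05). SE is the log2 fold change divided by the square root of F. The scripts were tested on simulated data. The study's methods name no test for these counts. The 10 genes and the lists were chosen with earlier results of these data known. All 10 were named, and, per list and direction, up to 3 called genes of the largest fold change whose groups did not overlap and whose mean log2 CPM reached 1. *Tead4*, *Acta2*, *Tagln*, *Cnn1* and the marker genes are named besides. Alternatives were DESeq2 1.42.0, other scalings, filters and tests, the replicate number as a block, and leaving out each sample. Replicate numbers did not pair samples. No 2 samples held identical counts, and pairs within a genotype differed by more than sampling noise (chi-square of 5.24 to 16.4 per gene, against 248 to 450 between genotypes). Gene positions are from GENCODE M21 (GRCm38, the same build as mm10).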

Additional observations from a re-analysis of the deposited data

How the results depend on the processing

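Of 450 recomputed log2 fold changes of single genes, 439 kept their direction and their side of the threshold, 4 kept their direction but lost the call and 7 changed sign. The losses were *Yap1* in Atm-/- against WT with library totals and *Amotl2* in Sirt6-/- against WT with library totals, without WT replicate 3 or without Sirt6-/- replicate 2. All 7 sign changes were *Yap1* in Atm-/- against Sirt6-/-, which was never called and had a main value of -0.0028. It was 0.0045 with DESeq2 size factors, 0.0558 with library totals, 0.0012 without the filter on low counts and 0.0054 with DESeq2's Wald test. When a sample was left out it lay between -0.0298 and 0.0245, and only some of these fits changed the sign. The cause was not tested. Requiring a 2-fold change as well can only lower the counts, by its own construction. Of the 10 genes it left 2 higher and 3 lower in Atm-/- against WT. It left 3 higher and 4 lower in Sirt6-/- against WT, and 3 higher and 2 lower in Atm-/- against Sirt6-/-. In Atm-/- against WT it left 9 of the target list, 7 of the Hippo and partner lists, and 2983 of all genes (1675 higher, 1308 lower). In Sirt6-/- against WT these were 6, 8 and 3872 (2315 higher, 1557 lower). In Atm-/- against Sirt6-/- they were 4, 3 and 3433 (1523 higher, 1910 lower).

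Same-numbered samples of 2 genotypes deviated together with correlations of -0.0120 to 0.0333, so the numbers do not pair samples. With the replicate number as a block, 8833 genes were called in Atm-/- against WT in place of 9080, 10041 in Sirt6-/- against WT in place of 10114 and 10157 in Atm-/- against Sirt6-/- in place of 10205, and the block changed no call among the 10 genes. Depth limits *Wisp3*, with 7 to 26 reads, and the size of fold changes against WT for genes with few reads there. Such genes include *Dchs1* with 2 to 4 WT reads, *Nt5e* with 18 to 38 and *Nov* with 34 to 52.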
